A study of Mus musculus with 8 samples.

Results

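The 34 genes described here mark astrocytes, 21 of them in the resting state and 13 in the reactive state. They were chosen by name, as the genes in the scanner files' gene name column that belong to a list of astrocyte markers. No measured value enters that rule, but the genes, lists and rules were chosen with earlier results of these data known. The array carries 48 probes for the 34 genes. After a filter on dim probes, 26 of the 34 were tested, 19 of 21 resting and 7 of 13 reactive genes, among 29529 genes in all.

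The samples were 8 mouse hippocampi with 1 Agilent array each, 4 from Ctcf conditional knockout (CKO) mice and 4 from WT mice. CKO mice were homozygous for a loxP-flanked Ctcf allele and carried Camk2a-Cre and the RiboTag allele of Rpl22, and WT mice had wild-type Ctcf with the same Cre and RiboTag alleles. The design text of the series gives the controls as loxP homozygotes without Cre, and the sample labels were followed. All mice were untreated, on a C57BL/6 background and at least 3 months old, with 3 males and 1 female per group. CTCF is a zinc finger protein that organises chromosome loops. RiboTag is a conditional haemagglutinin tag on the ribosomal protein RPL22, and the antibody to it pulls down tagged ribosomes with the transcripts they hold. The Camk2a promoter drives Cre in forebrain excitatory neurons, so by design both the deletion and the tag belong to those neurons and not to astrocytes. How the astrocyte transcripts came into the pull-down was not tested, and input RNA was not analysed here.

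Astrocytes take up glutamate and potassium released at synapses, turn glutamate into glutamine, contact blood vessels through end-feet rich in water channels, and are joined to each other by gap junctions. After injury or inflammation they become reactive: they enlarge, build more intermediate filament and express a set of secreted and membrane proteins that resting astrocytes hold at low level or not at all. Cytokines of the interleukin 6 family acting through JAK and STAT3, and interleukin 1, tumour necrosis factor and complement C1q from microglia, are known inducers of that state.

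Probes of genes whose values stood out are shown first, since each gene is read through a probe of 60 bases and the probes of 1 gene did not always move together. For Cd44 the probe shown is not the one that stands for the gene. Stretches of 30 bases are given, as bases 31 to 60 of the probe from its 5′ end. Capitals mark the letters AATAAA, the usual polyadenylation hexamer. Positions are those the files give on mm9, for the whole probe.
Aldoc (chr11:78140198-78140257, plus strand): gagtacatagcaAATAAAtgagagcaaaac
Mlc1 (chr15:88786336-88786395, minus strand): tgtctgttatagattaatatgcttgagcaa
Emp1 (chr6:135333061-135333120, plus strand): tggcttcttcattaataggatatttcacat
Serpina3n (chr12:105651918-105651977, plus strand): tgtgttataacctcatgtacagacatccct
Gfap probe 1 (chr11:102748864-102748923, minus strand): cagcctggtggctagtgccttcatattaga
Gfap probe 2 (chr11:102751813-102751872, minus strand): aggttaggttgtactaatagagctagccta
Gfap probe 3 (chr11:102752726-102752785, minus strand): acaggctcaccagattgaaaatggagccct
Cd44, the probe with a difference of -0.26 (chr2:102672645-102672704, minus strand): aaaccatccaacaacttctattctgccatc
Hspb1 (chr13:45173742-45173801, minus strand): ttttctcaAATAAAagttgcaagctactgc

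The hexamer AATAAA, searched on the probe strand only, is in 7 of the 48 probes, against 10.1% of all 55663 probes used. Whether a probe lies in an exon or a UTR was not analysed here, because no annotation of mm9 was used.

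Every value below is a log2 signal relative to the 75th percentile of its own array, so that 0 is the signal at that percentile. Between 72.2% (CKO 3) and 81.5% (WT 1) of probes were well above background on an array, and precision is limited by the small number of arrays. The arrays lay on 3 slides: WT 1 alone on slide 1, CKO 1, CKO 2, WT 2 and WT 3 on slide 2, and CKO 3, CKO 4 and WT 4 on slide 3. The 3 arrays of slide 3 stood apart on the first principal component, which held 54.4% of the variance of all genes, at 29.6 to 128 against -67.4 to -14.6 for the 5 others. Results are therefore also given within slides and without slide 3. Ctcf averaged -2.24 ± 0.29 in CKO mice and -1.37 ± 0.30 in WT mice (SD, n = 4 each), which left 54.8% of the WT signal. Every CKO mouse was below every WT mouse (exact two-sided permutation p = 0.0286, the smallest that 4 against 4 allow), and the limma adjusted p was 0.724. All 12 excitatory neuron markers looked up passed the filter on dim probes.

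No astrocyte gene passed the test between genotypes. Of the 26 tested, 0 had a limma adjusted p under 0.05, against 1 of 29529 genes (0.00339%), and the smallest adjusted p of an astrocyte gene was 0.724. At an unadjusted limma p under 0.05, 3 of the 26 were higher in CKO mice (Aldoc, Mlc1 and Emp1), against 2.5% of all genes. None of the 26 was lower, against 2.8% of all genes. In 0 of the 26 did the groups separate fully, against 1.96% of all genes with every CKO mouse above every WT mouse and 1.36% with every CKO mouse below. With quantile normalization 3 were higher (Emp1, Id4 and Mlc1), against 2.57% of all genes, and Serpina3n was lower, against 1.73%. With normexp and quantile normalization the same 3 were higher, against 3.01%, and Cd44 and Serpina3n were lower, against 1.81%. These signals come from whole pull-downs. Differences in astrocyte number, in RNA per astrocyte and in how much astrocyte RNA entered the pull-down cannot be told apart.

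Most resting genes lay above 0 and most reactive genes below it. Among the 19 resting genes 14 had a positive difference, CKO minus WT, and the median difference was 0.16. Among the 7 reactive genes 2 did, with a median of -0.12. Over all genes 41.5% were positive and the median was -0.078. The direction of the reactive median turned with the scaling: it was 0.026 with median scaling, 0.041 with quantile normalization and 0.16 with the authors' deposited values. With 1 array left out it ran from -0.31 (without WT 4) to 0.063 (without WT 3), and the resting median ran from 0.058 (without CKO 1) to 0.22 (without CKO 3). The median of all genes moved with those settings too, to 0.065, -0.0098 and 0.026, whereas the resting median stayed above it at 0.30, 0.15 and 0.19.

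**Figure D1:**
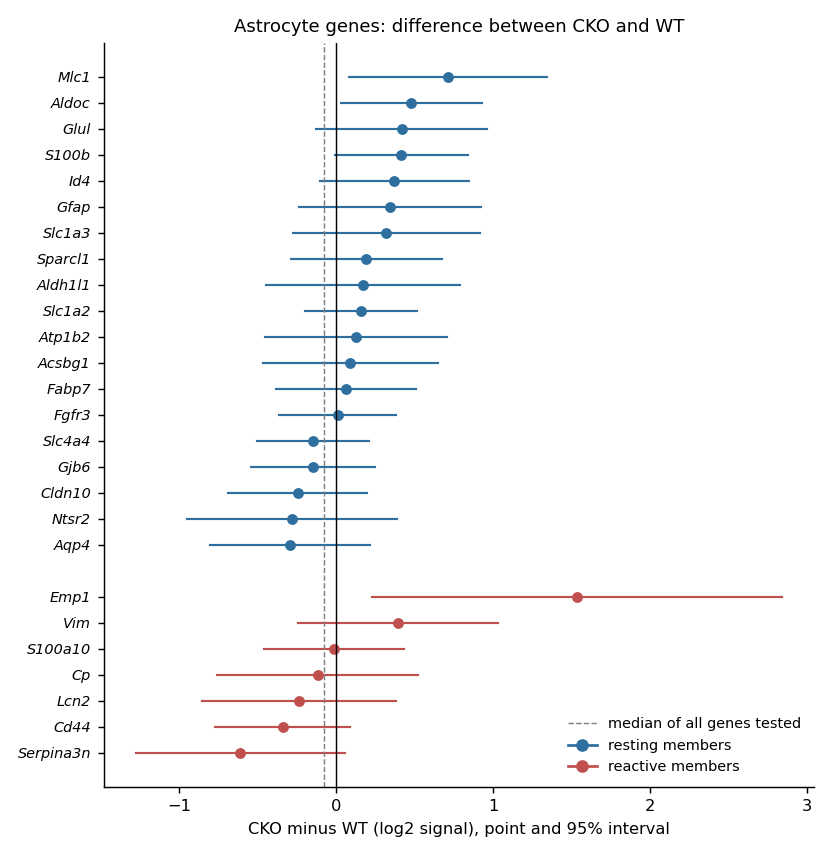
Difference between CKO and WT mice in log2 signal for each of the 26 astrocyte genes tested, with the limma estimate as a point and its 95% interval as a line; resting genes stand in the upper block, reactive genes in the lower one, and the dashed line is the median of all genes tested, -0.078. The intervals of Mlc1, Aldoc and Emp1 lie above 0 and those of the other 23 genes include it.

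Of the resting genes for energy and glutamate metabolism, Aldoc differed most. Aldoc encodes aldolase C, a glycolytic enzyme of astrocytes. Its signal was 3.96, 3.84, 3.93 and 3.19 in CKO mice 1 to 4, against 3.28, 3.21, 3.34 and 3.17 in WT mice 1 to 4. The first 3 CKO mice lay above every WT mouse and CKO 4 lay among them, so the groups overlapped. The difference was 0.48 with a standard error (SE) of 0.20, or 1.39-fold, with an unadjusted limma p of 0.0389 and an adjusted p of 0.724. It was 0.33 with quantile normalization (unadjusted limma p of 0.0924) and 0.34 with normexp and quantile normalization (unadjusted limma p of 0.0575). With the authors' deposited values it was 0.30 (unadjusted limma p of 0.153), and with median scaling 0.62 (unadjusted limma p of 0.0216). With 1 array left out the unadjusted limma p ran from 0.00296 (without CKO 4) to 0.105 (without CKO 1). Glul encodes glutamine synthetase, which turns glutamate into glutamine. It was at 1.42, 1.46, 1.86 and 1.38 in CKO mice, against 1.66, 0.57, 1.11 and 1.12 in WT mice. WT 1 lay above all CKO mice but CKO 3, and the difference of 0.42 (SE 0.24) had an adjusted p of 0.724 by limma.

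The plasma membrane glutamate transporters gave smaller differences. Slc1a2 (GLT-1), the main glutamate uptake carrier of the forebrain, ranged from 3.27 to 3.77 in CKO mice and from 3.28 to 3.33 in WT mice, a difference of 0.16 (SE 0.16). Slc1a3 (GLAST), the other astrocytic carrier, ranged from -1.02 to -0.75 in CKO mice and from -1.86 to -0.53 in WT mice, a difference of 0.32 (SE 0.26). Aldh1l1, the folate enzyme widely used to label astrocytes, and Acsbg1, an acyl-CoA synthetase, differed by 0.17 (SE 0.27) and 0.090 (SE 0.25). Groups overlapped for each of these 4 genes.

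The membrane and water-handling genes did not move one way. Mlc1 encodes a membrane protein of astrocyte end-feet that is mutated in a human leukoencephalopathy with cysts. It was at -0.59, -0.33, 0.0045 and -0.81 in CKO mice and at -0.47, -1.63, -1.31 and -1.18 in WT mice. CKO mice all lay above WT 2, WT 3 and WT 4, while WT 1 lay among them. The difference was 0.71 (SE 0.28), or 1.64-fold, with an unadjusted limma p of 0.0308 and an adjusted p of 0.724. Aqp4, the water channel of the end-feet, differed by -0.29 (SE 0.23) on the probe that stands for it. Gjb6, a gap junction subunit, differed by -0.15 (SE 0.17), and Cldn10, a tight junction family protein, by -0.25 (SE 0.20). Slc4a4, a sodium bicarbonate cotransporter, differed by -0.15 (SE 0.16) and Atp1b2, the beta 2 subunit of the sodium pump, by 0.13 (SE 0.26).

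S100b and Gfap are the classical protein markers of astrocytes. S100b, a calcium-binding protein, was at 1.43, 1.11, 1.37 and 0.92 in CKO mice and at 1.04, 0.58, 0.61 and 0.94 in WT mice. In 3 CKO mice it was above every WT mouse and in CKO 4 it was not. The difference was 0.41 (SE 0.19), with an unadjusted limma p of 0.0542. Gfap, the intermediate filament protein that increases in reactive astrocytes, was at 0.75, 0.67, -0.23 and 0.64 in CKO mice and at 0.43, -0.24, 0.037 and 0.24 in WT mice. CKO 3 was at the level of the lowest WT mouse and the 3 other CKO mice were above all WT mice. The difference was 0.34 (SE 0.26), with an adjusted p of 0.724 by limma.

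Of the regulators and receptors of the resting list, Id4 differed most. Id4, an inhibitor of basic helix-loop-helix factors, was at -3.05, -2.73, -3.29 and -2.81 in CKO mice and at -2.92, -3.48, -3.65 and -3.31 in WT mice. WT 1 lay within the CKO range and the other WT mice were below -3.29, the lowest CKO value. The difference was 0.37 (SE 0.21), with an unadjusted limma p of 0.110. Fgfr3, a fibroblast growth factor receptor, differed by 0.0088 (SE 0.17), Fabp7, a fatty acid binding protein of radial glia and astrocytes, by 0.061 (SE 0.20), and Ntsr2, a neurotensin receptor, by -0.28 (SE 0.30). Sparcl1 (hevin), a secreted protein that promotes synapse formation, differed by 0.19 (SE 0.21). The 95% interval of Fgfr3 ran from -0.37 to 0.38, which leaves room for a change of that size in either direction.

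**Figure D2:**
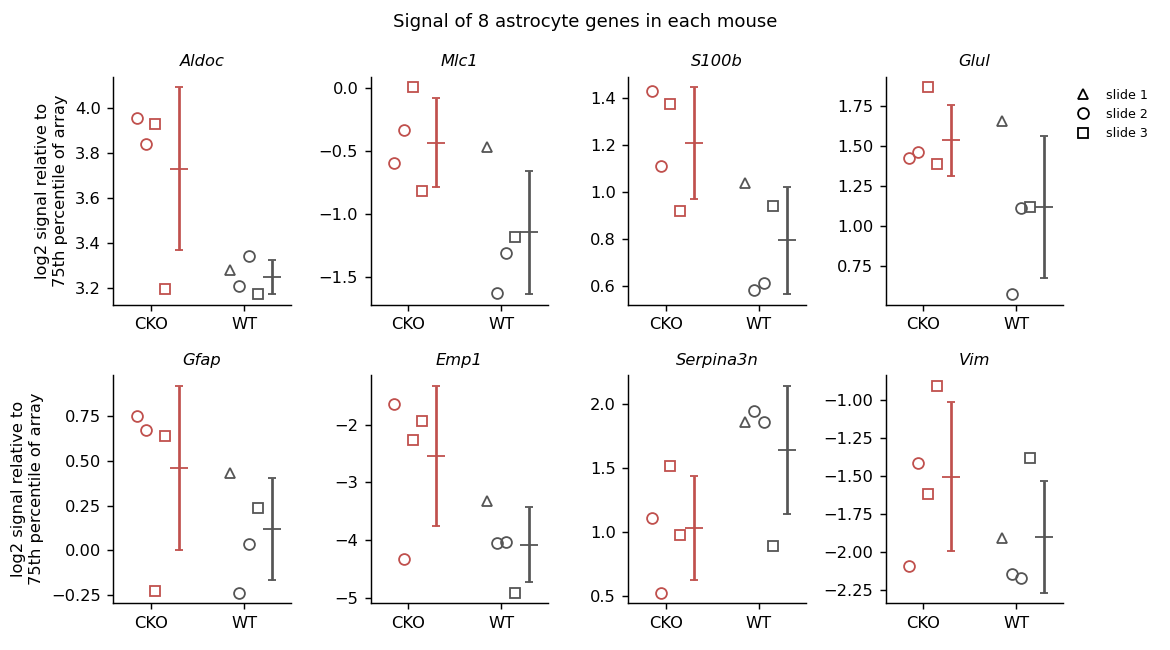
Signal of 8 astrocyte genes in each mouse (log2 relative to the 75th percentile of the array), CKO mice left and WT mice right in each panel, with marker shape for the slide and the mean ± SD of 4 mice beside the points. Aldoc lies above all WT mice in 3 of 4 CKO mice, Emp1 likewise, and Serpina3n is near 1.9 in 3 WT mice and at 0.89 in WT 4.

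Among the reactive genes the 2 with the smallest p went opposite ways. Emp1, an epithelial membrane protein listed among the genes of astrocytes reacting to ischaemia, was at -1.64, -4.33, -2.27 and -1.94 in CKO mice and at -3.32, -4.05, -4.04 and -4.91 in WT mice. CKO 2 lay below 3 of the WT mice and the other CKO mice lay above all of them. The difference was 1.53 (SE 0.58), or 2.90-fold, with an unadjusted limma p of 0.0262 and an adjusted p of 0.724. With normexp and quantile normalization it was 0.95, a setting whose offset by construction shrinks differences of dim probes, and 0.82 without slide 3.

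Serpina3n, a secreted serine protease inhibitor that is a common marker of reactive astrocytes, was at 1.11, 0.52, 1.52 and 0.97 in CKO mice and at 1.86, 1.95, 1.86 and 0.89 in WT mice. WT 1, WT 2 and WT 3 were above every CKO mouse and WT 4 was below 3 of them. The difference was -0.61 (SE 0.29), which is 65.5% of the WT signal, with an unadjusted limma p of 0.0679. It depended on WT 4 and on slide 3, which cannot be told apart, because WT 4 is the only WT array there. The difference was -1.09 within slide 2 and 0.35 within slide 3. It was -0.86 without WT 4 (unadjusted limma p of 0.00684) and -1.07 without slide 3 (unadjusted limma p of 0.00244). The adjusted p of Serpina3n was 0.363 or higher in every setting.

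The filament and surface genes of the reactive list had overlapping groups. Vim encodes vimentin, an intermediate filament protein of reactive astrocytes and of blood vessel cells. It was at -2.09, -1.41, -1.61 and -0.90 in CKO mice and at -1.91, -2.14, -2.17 and -1.38 in WT mice, a difference of 0.39 (SE 0.28). Cd44, the hyaluronan receptor, was at 3.36, 3.65, 3.25 and 3.57 in CKO mice and at 4.14, 3.81, 3.79 and 3.45 in WT mice on the probe that stands for the gene. WT 4 lay among the CKO mice and the other 3 WT mice were above them, with a difference of -0.34 (SE 0.19). It was -0.48 with normexp and quantile normalization (unadjusted limma p of 0.0353) and -0.46 without WT 4 (unadjusted limma p of 0.0341), and whether that probe reads Cd44 alone was not tested. The other Cd44 probes were dimmer, with means of -1.60, -3.97 and -1.44 in CKO mice and -1.35, -3.77 and -1.39 in WT mice. The level of Cd44 is therefore uncertain. S100a10, an annexin A2 partner, differed by -0.013 (SE 0.20).

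Of the secreted reactive genes that bind iron compounds or copper, Lcn2 (lipocalin 2) ranged from -1.17 to -0.071 in CKO mice and from -0.88 to -0.11 in WT mice, a difference of -0.24 (SE 0.27). Cp (ceruloplasmin) ranged from -3.30 to -2.34 in CKO mice and from -3.24 to -2.07 in WT mice, a difference of -0.12 (SE 0.28). Lcn2, which is strongly induced in inflamed brain, thus had overlapping ranges in CKO and WT mice.

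The 8 genes not tested were too dim. Timp1, an inhibitor of metalloproteinases, Osmr, the oncostatin M receptor, and Ggta1, a galactosyltransferase, were not well above background on any array. Gja1, the main gap junction protein of astrocytes, has 1 probe printed 10 times on each array, and at most 1 of its spots was well above background on an array. No level is given for Gja1, and Gjb6, its partner in astrocyte junctions, was well above background on all 8 arrays.

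Sox9, the transcription factor of astrocyte nuclei, is also printed 10 times. In CKO 4 all 8 spots without an outlier flag were well above background, with a median intensity of 196, in CKO 3 it was 2 of 8 (119), and in CKO 1 and CKO 2 it was 1 and 0 of 10 (25.3 and 28.1). In WT 1 all 10 spots were, with a median intensity of 342, and in WT 2, WT 3 and WT 4 none of 10 was, with medians of at most 33.1. The probe thus counted as well above background on 1 CKO array (CKO 4) and 1 WT array (WT 1). CKO 3, with 2 of 8 such spots, did not count, and the 5 other arrays stayed near background.

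Hspb1, the small heat shock protein HSP27, was at -4.56, -5.10, -5.29 and -6.84 in CKO mice and at -7.58, -7.60, -7.53 and -7.75 in WT mice. Every CKO mouse was above every WT mouse, but the probe was well above background on 2 CKO arrays and on 0 WT arrays. With each WT mouse set no lower than the dimmest signal well above background on its array, the CKO mean was 1.19-fold higher. That mean takes in CKO arrays where the probe was not well above background, so 1.19 is not a firm lower bound. With no filter on dim probes the fitted difference was 2.16 and the limma adjusted p was 0.481. The files place this probe on chromosome 13, while RefSeq (GRCm38.p6) has the Hspb1 gene on chromosome 5, so which transcript it reads is uncertain. Steap4, a metalloreductase, and Fbln5 (fibulin 5), an extracellular matrix protein, were each well above background in 1 CKO mouse and in no WT mouse, and no fold could be given for either.

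More than 1 probe passed the filter on dim probes for 7 of the genes tested, and they did not all give the same direction. Gfap probe 1, which stands for the gene, is designed on the transcript NM_010277 and gave 0.34 (SE 0.26). Gfap probe 2, on NM_001131020, gave 0.53 (SE 0.20, unadjusted limma p of 0.0251, limma adjusted p of 0.738 over all probes). Its range was -1.51 to -0.74 in CKO mice and -1.68 to -1.42 in WT mice, and 3 CKO mice lay above every WT mouse. Gfap probe 3, assigned to the same transcript as probe 2, gave -0.27 (SE 0.27). So 2 of 3 Gfap probes were higher in CKO mice and 1 was lower, and probes 2 and 3 opposed each other on 1 assigned transcript.

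Aqp4 also had 2 probes on 1 transcript that lay on opposite sides of 0. The brighter gave -0.29 (SE 0.23) and the other 0.74 (SE 0.42), and their mean gave 0.22. In the remaining genes the probes lay closer: the 3 Slc1a2 probes gave 0.16, 0.21 and -0.022, the 2 Fgfr3 probes 0.0088 and 0.044, the 2 Ntsr2 probes -0.28 and -0.0020, and the 3 Slc4a4 probes -0.15, -0.36 and -0.18. Of the Slc4a4 probes, those at -0.15 and -0.18 overlap on the genome and share most of their bases. One of the Fgfr3 probes, the one that stands for the gene, is placed on chromosome 1 by the files, while the gene and the other probe lie on chromosome 5. The 4 Cd44 probes gave -0.34, -0.26, -0.20 and -0.043, all below 0, with unadjusted limma p from 0.111 to 0.863.

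**Figure D3:**
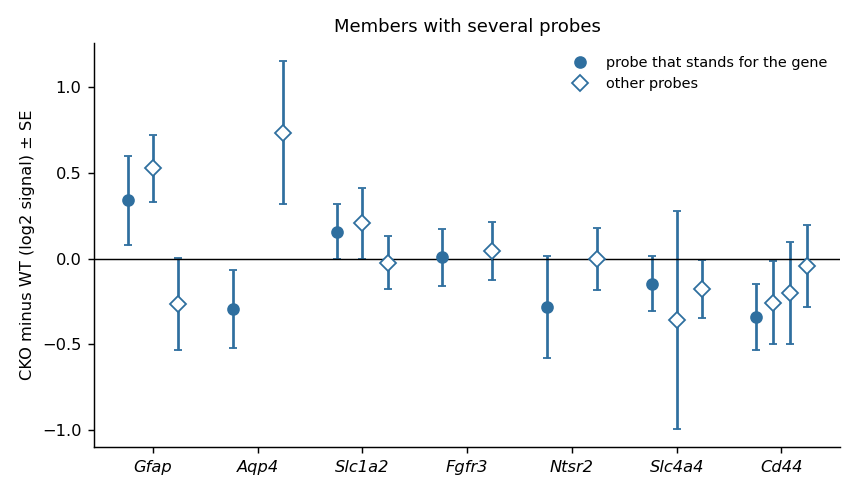
Difference between CKO and WT mice in log2 signal ± SE for every probe above the filter of the 7 genes with several such probes, with filled circles for the probe that stands for the gene and open diamonds for the others. Gfap, Aqp4 and Slc1a2 have probes on both sides of 0, and the 4 Cd44 probes lie between -0.34 and -0.043.

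Within slides, the resting genes differed more on one slide than on the other. Within slide 2 (CKO 1 and CKO 2 against WT 2 and WT 3) 16 of 19 resting genes were higher in CKO mice and the median difference was 0.35, against -0.063 for all genes. Within slide 3 (CKO 3 and CKO 4 against WT 4) 9 of 19 were, with a median of -0.012, against -0.0076 for all genes. The difference between these slides was not tested, and slide 3 holds 1 WT mouse. With the slide as a fixed block, 7 of the 26 genes had an unadjusted limma p under 0.05 and a higher signal in CKO mice, against 2.39% of all genes: Aldoc, Glul, Id4, Mlc1, S100b, Slc1a3 and Emp1. None was lower, against 3.77% of all genes, and the lowest adjusted p among these 7 was 0.754. Mlc1 differed by 0.91 in that fit, with an unadjusted limma p of 0.00556, and by 1.01 and 0.77 within slides 2 and 3. Aldoc differed by 0.62 and 0.39 within the same slides, Glul by 0.60 and 0.50, Slc1a3 by 0.66 and 0.26, Id4 by 0.68 and 0.26 and S100b by 0.67 and 0.21. These 6 were picked by that fit, which averages over the slides, so their like sign on both slides is in part built into the choice.

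Other genes had opposite signs on the 2 slides. Gfap differed by 0.81 within slide 2 and by -0.031 within slide 3. Cldn10 differed by 0.0058 and -0.84 on the same slides, Gjb6 by 0.12 and -0.44 and Fabp7 by 0.43 and -0.24. Without slide 3, which leaves 2 CKO and 3 WT mice and was chosen after seeing the data, the resting median was 0.27. Aldoc and Gfap then had an unadjusted limma p under 0.05 and were higher in CKO mice, against 2.98% of all genes, and Serpina3n was lower, against 4.95% of all genes. For the reactive genes the median was -0.16 on slide 2 alone, 0.12 on slide 3 alone and -0.040 with slide 3 left out.

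**Figure D4:**
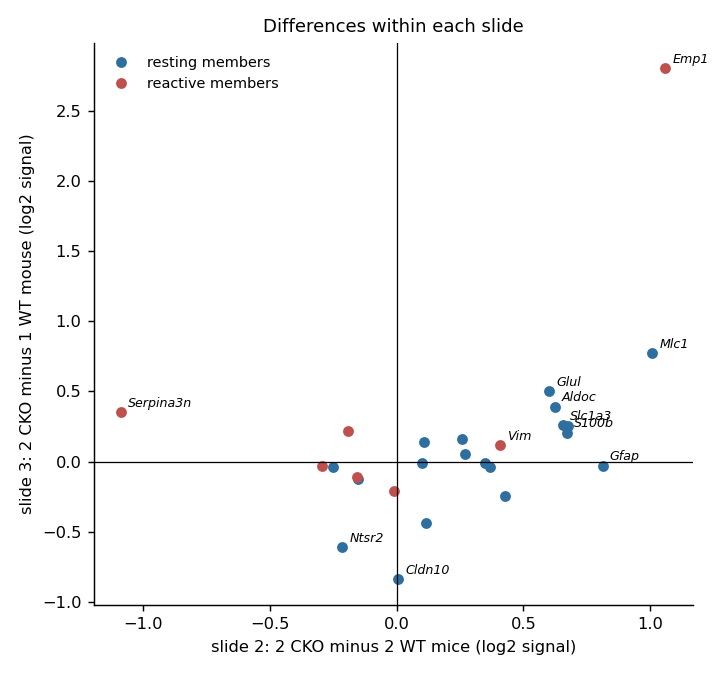
Difference between CKO and WT mice in log2 signal for each of the 26 astrocyte genes within slide 2 (horizontal axis) and within slide 3 (vertical axis). Mlc1 and Emp1 are high on both axes, Gfap only on the horizontal one, and Serpina3n lies at -1.09 on slide 2 and 0.35 on slide 3.

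The difference between genotypes also ran with signal over all genes, so each astrocyte gene was set beside genes of like signal. All genes were put in 10 equal classes by mean signal, and their median difference was -0.52 in the dimmest class and 0.16 in the brightest, or -0.076 and 0.026 in those classes after quantile normalization. Taken relative to the median of its own class, 12 of 19 resting genes were above it, with a median excess of 0.17, and 4 of 7 reactive genes were, with a median excess of 0.047. Emp1, in class 2 from the dim end, where the median was -0.29, stood farthest above its class. Slc1a2, in the brightest class, differed by 0.16, which equals the median of that class to 2 decimals.

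**Figure D5:**
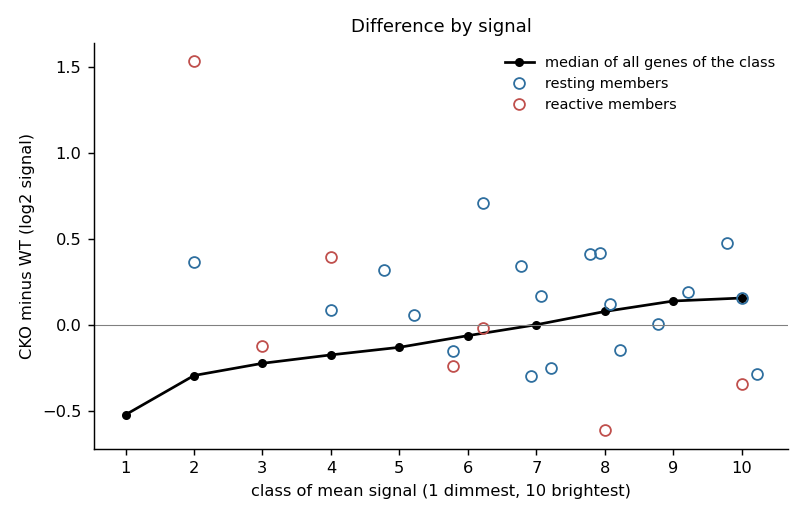
Difference between CKO and WT mice in log2 signal by class of mean signal (1 dimmest, 10 brightest), with the median of all genes in each class as the black line and the 26 astrocyte genes as open circles. The line climbs from -0.52 in the dimmest class to 0.16 in the brightest, and Emp1 and Mlc1 are the astrocyte genes farthest above it.

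Other astrocyte genes gave a median near that of the resting genes. A further list of 36, none of them among the 34, was tested in full: 24 were positive, the median was 0.14 and 0 passed an adjusted p of 0.05 by limma. At an unadjusted limma p under 0.05, 1 was higher in CKO mice, against 2.5% of all genes, and 0 were lower, against 2.8%. Clu (clusterin), a secreted chaperone, was at 4.08, 3.91, 4.01 and 3.49 in CKO mice and at 3.28, 3.30, 3.35 and 3.42 in WT mice, with no overlap and an adjusted p of 0.724 by limma. Hepacam, an adhesion protein that binds MLC1, was at -1.71, -1.77, -1.76 and -1.93 in CKO mice and at -1.94, -2.20, -2.38 and -2.03 in WT mice, also without overlap. Clu differed by 0.54 (SE 0.17) and Hepacam by 0.35 (SE 0.16). In all, 3 of the 36 had every CKO mouse above every WT mouse, against 1.96% of all genes, and 1 had every CKO mouse below, against 1.36%. The others, named after their values were seen, were Cst3 (cystatin C), a protease inhibitor, at 0.25 (SE 0.14), and F3 (tissue factor), the starter of blood clotting, at -0.20 (SE 0.13).

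Reactive genes beyond the 13, and the signals that induce them, centred near 0. Of 24 further reactive genes 20 were tested, 9 were positive, the median was -0.0089 and 0 passed. At an unadjusted limma p under 0.05, 1 was higher in CKO mice, against 2.5% of all genes, and 0 were lower, against 2.8%. Psmb8, an immunoproteasome subunit, differed by 2.72 (SE 0.84, limma adjusted p = 0.724) but was well above background on only 3 CKO arrays and 1 WT array, and with normexp and quantile normalization it differed by 0.78. Slc10a6, a steroid sulphate carrier, differed by -0.50 (SE 0.25). Of 24 genes of the inducing cytokines, their receptors and transducers, 20 were tested, with a median of -0.017 and none past the adjusted threshold. None had an unadjusted limma p under 0.05 in either direction, against the same shares of all genes. Il1r1, the interleukin 1 receptor, differed by -1.07 (SE 0.59), with a CKO range of -7.37 to -4.28 and a WT range of -5.26 to -5.02, and was well above background on 1 CKO and 3 WT arrays. With normexp and quantile normalization Il1r1 differed by -0.060. Il11, a cytokine of the interleukin 6 family, differed by -0.78 (SE 0.47).

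Markers of other cell types also differed between the groups, and their part in the astrocyte values was not tested. All 12 microglial markers passed the filter and 11 were higher in CKO mice, against 41.5% of all genes, with a median difference of 0.24. Of the 12, 4 were higher in CKO mice at an unadjusted limma p under 0.05, against 2.5% of all genes. None was lower, against 2.8%. The per-mouse medians of the 12 markers were -0.73, -0.67, -0.91 and -1.11 in CKO mice and -1.17, -1.48, -1.71 and -1.36 in WT mice, without overlap. Log2 of their summed signal ran from 6.26 to 6.73 in CKO mice and from 6.04 to 6.46 in WT mice. Laptm5, a lysosomal protein of microglia, differed by 0.55 (SE 0.19). The same summed measure of the resting astrocyte genes ran from 5.62 to 5.97 in CKO mice and from 5.62 to 5.73 in WT mice, and that of the reactive genes from 3.82 to 4.00 in CKO mice and from 3.87 to 4.53 in WT mice.

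Lists of markers of the oligodendrocyte lineage and of the ventricle had medians on both sides of 0. Of 12 oligodendrocyte markers 11 were tested, with a median of 0.18, and the myelin genes Mal and Mag differed by 0.68 (SE 0.25) and 0.54 (SE 0.20). All 8 markers of oligodendrocyte precursors were tested, with a median of -0.045. C1ql1, a secreted synaptic organiser, differed by 1.02 (SE 0.26). Neu4, a sialidase, differed by -1.59 (SE 0.39) but was well above background on only 1 CKO array against 4 WT arrays, and with normexp and quantile normalization it differed by -0.17. Of 10 choroid plexus and ependymal markers 7 were tested, with a median of 0.21. Ttr (transthyretin), made by the choroid plexus, differed by 1.16 (SE 0.36) and Kl (klotho) by 0.43 (SE 0.17). Every CKO mouse was above every WT mouse in 1 of 11 oligodendrocyte markers (Mag) and 1 of 8 precursor markers (C1ql1). The same held for 2 of 7 choroid plexus and ependymal markers (Ttr and Kl), against 1.96% of all genes. Neu4 had every CKO mouse below every WT mouse, against 1.36%. Log2 of the summed signal ran from 5.43 to 5.58 in CKO mice and from 5.33 to 5.76 in WT mice for oligodendrocytes, and from 1.98 to 2.10 in CKO mice and from 1.57 to 1.91 in WT mice for precursors. It ran from 3.40 to 4.10 in CKO mice and from 2.73 to 3.42 in WT mice for choroid plexus and ependyma.

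The direction of the excitatory neuron median turned with the processing. It was 0.10 over the 12 markers, but -0.038 with quantile normalization, -0.024 with normexp, -0.045 with the authors' deposited values and -0.072 within slide 3. Of these markers, Prox1, the dentate granule cell factor, differed by -0.41 (SE 0.18) and Nrgn (neurogranin) by 0.59 (SE 0.28). Of 10 inhibitory neuron markers 9 were tested, with a median of 0.15, and Pvalb (parvalbumin) and Cck (cholecystokinin) differed by 0.55 (SE 0.21) and 0.34 (SE 0.17). Log2 of the summed signal ran from 7.57 to 7.98 in CKO mice and from 7.54 to 7.80 in WT mice for excitatory neurons, and from 6.15 to 6.75 in CKO mice and from 6.14 to 6.47 in WT mice for inhibitory neurons.

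Vessel, fibroblast and stem cell markers were looked up as well. Of 12 endothelial and pericyte markers 10 were tested, with a median of 0.023. Itm2a differed by 0.77 (SE 0.30) and Pecam1, an endothelial junction protein, by -0.85 (SE 0.34). The 8 fibroblast markers had a median of -0.050, with Igf2 at 0.64 (SE 0.32) and Col3a1, a collagen, at -0.17 (SE 0.18). Of 8 neural stem and progenitor markers, which share lineage with astrocytes, 7 were tested with a median of 0.12, and Ccnd2, a cyclin, differed by 0.13 (SE 0.17). Log2 of the summed signal ran from 1.75 to 2.33 in CKO mice and from 1.70 to 2.23 in WT mice for vessels, from 3.15 to 3.49 in CKO mice and from 3.24 to 3.36 in WT mice for fibroblasts, and from 3.42 to 3.85 in CKO mice and from 3.40 to 3.65 in WT mice for stem cells. No gene named from any of these marker lists passed an adjusted p of 0.05 by limma.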

How the data were processed

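RNA pulled down with tagged ribosomes was labelled with Cy5 after whole transcriptome amplification, per the labels' protocols. The deposited scanner files hold red-channel spot intensity from Agilent Feature Extraction, version 11.5 per the submitters' processing notes. The authors' deposited value table is an intensity on a linear scale whose normalization is not given in the sources used here, and it served as an alternative. Spots with outlier flags were left out and spots of 1 probe averaged, no spot was saturated, and 18 of 55681 probes had no usable spot on some array. Log2 of the deposited processed intensity was taken minus the 75th percentile of each array. Probes had to be well above background on 4 or more arrays, which left 44316, and a gene is its probe with the highest mean.

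CKO was compared with WT in limma 3.58.1 (R 4.3.3; lmFit and eBayes, two-sided) over 29529 genes, with Benjamini-Hochberg adjustment and a threshold of 0.05. The fit was run on simulated data with independent noise and no slide effect, so that check does not cover the slides. The 26 genes with a test were well above background on all 8 arrays. The fold of Hspb1 sets the CKO mean against the higher of the WT probe and the dimmest detected signal. The genes, the lists and the rules were chosen with earlier results of these data known. Genes given mouse by mouse are those with an unadjusted p under 0.05 and the 4 of each set with the smallest p, with Glul, Gfap, Hspb1 and Sox9 added after their values were seen, and other lists name the 2 genes with the smallest p, some of which are not reported here. Alternatives were other scalings, normexp with an offset of 50, other probe filters, slide and sex terms, a replicate block and each array left out.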

Additional observations from a re-analysis of the deposited data

Results flagged for a closer look

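A mouse far from the 3 others of its group was looked for in 130 gene or list groups of 4 mice, with Dixon's test. It was found in 11, where chance gives about 1 in 20. Among the astrocyte genes, CKO 3 stood apart for Gfap, at -0.23 against 0.64 to 0.75 in the other CKO mice, and for Glul, at 1.86 against 1.38 to 1.46. CKO 4 stood apart for Aldoc, at 3.19 against 3.84 to 3.96. WT 4 stood apart for Aqp4, at -0.031 against 0.57 to 0.64 in the other WT mice, for Cldn10, at 0.65 against -0.040 to 0.066, and for Serpina3n, at 0.89 against 1.86 to 1.95. These 6 values come from arrays of slide 3.

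Outside the astrocyte genes, CKO 3 stood apart for Il11, at -4.72 against -2.99 to -2.63, and for Pecam1, at -4.29 against -3.08 to -2.86. CKO 4 stood apart for Prox1, at 1.78 against 1.29 to 1.36, and for Cck, at 4.13 against 4.45 to 4.50. The median of the oligodendrocyte precursor list was -1.37 in WT 1, against -2.06 to -1.95 in the other WT mice.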

How the results depend on the processing

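No astrocyte gene passed an adjusted p of 0.05 by limma in any of 21 settings, where the lowest adjusted p was 0.305, and the resting median was above 0 in each of them and within slide 2, and -0.012 within slide 3. The count at an unadjusted limma p under 0.05 moved: 5 higher in CKO with median scaling, 7 with the slide as a fixed block (2.39% of all genes), 6 with the slide as a random block (3.77%) and 0 to 6 with 1 array left out (0 without WT 4, against 5.28% of all genes, 6 without WT 1, against 1.31%, and 1 without CKO 1, CKO 2, CKO 3, WT 2 or WT 3, against 1.14% to 2.96%). Lower in CKO it was 1 with quantile normalization, 2 with normexp, 1 with a trended and robust prior (2.03% of all genes), 1 without slide 3 (4.95%), and 0 to 2 with 1 array left out (2 without WT 4, against 8.06% of all genes, and 1 without CKO 3, against 1.78%). Over all genes the shares higher and lower were 2.5% and 2.8%, against 2.57% and 1.73% with quantile normalization, 3.01% and 1.81% with normexp, 3.02% and 1.84% with median scaling and 3.53% and 1.12% with the authors' values. The reactive median was 0.16 with the authors' values, 0.047 with normexp and 0.094 with no filter. The last takes in all 13 reactive genes and is the value of Ggta1, which was not well above background on any array. No pairing by replicate number was seen (correlations of deviations -0.32, 0.39, -0.42 and 0.068, and no mouse correlated best with its own number). This check cannot exclude a pairing, because the mice numbered 1 and those numbered 3 lay on different slides. With the replicate block the count was 1 higher (Emp1, against 1.29% of all genes), 0 lower (against 2.39%) and 0 past the adjusted threshold.

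Of the 26 genes 17 kept their sign outside the fits with 1 array left out. Signs turned for Aqp4 with the mean of its probes (0.22), Slc1a2 (-0.055) and Gjb6 (0.0017) with the authors' values, Fgfr3 with quantile (-0.080), normexp (-0.11) and authors' values (-0.12), S100a10 with median scaling (0.13), quantile (0.041), normexp (0.047) and authors' values (0.16), and Cp with the same 4 (0.026, 0.062, 0.070 and 0.16). Without slide 3 Atp1b2 was -0.075, Ntsr2 0.091 and Cldn10 0.030. Outside the 26, Ccnd2 turned with quantile (-0.0095), normexp (-0.053) and authors' values (-0.12). With 1 array left out Acsbg1 ran from -0.049 to 0.32, Aldh1l1 from -0.0067 to 0.35, Atp1b2 from -0.055 to 0.29, Cp from -0.31 to 0.078, Fabp7 from -0.036 to 0.17, Fgfr3 from -0.069 to 0.10 and S100a10 from -0.16 to 0.086. The cause of these moves was not tested. Signal over background limits Hspb1, Sox9, Gja1, Timp1, Osmr, Ggta1, Steap4 and Fbln5.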
